A study of Bos taurus with 11 samples.

Results

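The proteasome subunit genes of cattle were followed through 5 chromatin targets in rumen epithelial primary cells (REPC), with and without butyrate. The genes were taken by symbol from the gene annotation of the deposited interval table. They were the PSMA, PSMC, PSMD, PSME, PSMF and PSMG symbols that go on with a number, and the PSMB symbols of that kind other than PSMB8 and PSMB9. This gave 46 of the 25197 gene symbols in the table, and 45 of them had a single gene start that could be worked out from the annotation, among 23876 genes with such a start. PSMD13 had 2 candidate starts and is described on its own. The promoter window of a gene reached 2 kb upstream and 2 kb downstream of its start, and a promoter carried a mark where a called interval of that library touched the window.

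REPC came from 1 Holstein bull calf, 2 weeks old and fed milk replacer only. The cells were cultured without butyrate (control) or with 5 mM butyrate for 24 h. Chromatin immunoprecipitation and sequencing was done for H3K27ac, H3K4me3, H3K4me1, H3K27me3 and the DNA-binding protein CTCF, with 1 library per target and condition and 1 input library. With 1 library on each side no difference has a replicate check, so counts, signals and ratios are given as values without a test.

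The proteasome is the protease that degrades proteins tagged with ubiquitin. Its core particle is a barrel of alpha and beta subunits, with the protein-cutting sites on beta subunits. The regulatory particle at its ends binds ubiquitin, removes it and feeds the unfolded protein into the barrel through a ring of ATPases. Every cell needs it, and its genes are usually described as housekeeping genes with CpG-rich promoters. Butyrate, a fatty acid made by rumen microbes, inhibits histone deacetylases. H3K4me3 and H3K27ac mark active promoters, H3K4me1 marks enhancers and promoter flanks, H3K27me3 marks Polycomb-repressed chromatin, and CTCF binds at insulators and at many promoters.

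The libraries held between 26824 and 54071 intervals each. The signal of an interval was a tag density, given as its average over the interval and as its peak at the summit, and how the signals were scaled between libraries is not stated in the sources used here. The H3K27ac library after butyrate had more intervals than control (48701 against 38148), but they were shorter (median 417 bp against 666 bp). Over all 7866 promoters with H3K27ac in both libraries, the log2 ratio of butyrate over control had a median of -0.78, so ratios of the proteasome genes are read beside that value. Of the 6 epithelial marker genes checked, KRT5 and DSP carried H3K4me3 in both libraries, LAMB3 and KRT14 after butyrate only, and TP63 and CDH1 in neither. In control LAMB3 had H3K27ac at 81.0 and H3K4me1 at 60.0, and KRT14 had H3K4me1 at 39.8. Of the 5 fibroblast and endothelial markers, COL1A1, COL1A2 and PDGFRA carried H3K4me3 in both libraries, and PECAM1 and CDH5 in neither. H3K27ac was present in control at 3 of the 6 epithelial markers and 2 of these 5, and H3K4me1 at 3 and 3. PDGFRA stood at 46.8 for H3K4me3 in control and 125 after butyrate. Any part of fibroblasts or endothelial cells in the values below was not tested. In a culture measured in bulk, a weaker mark in all cells and a mark in fewer cells cannot be told apart.

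Nearly all proteasome genes had an active promoter signature in REPC. H3K4me3 was present at 43 of the 45 promoters in both libraries, where 56.8% of all promoters carried it in control and 61.9% after butyrate. H3K27ac was present at 42 in control and at 36 after butyrate, where the shares of all promoters were 47.3% and 34.9%. The 2 genes without any active mark were PSMA8, an alpha subunit known from the testis, and PSMB11, a beta subunit known from the thymus.

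PSMA8 (chromosome 24, start at 31007549 in UMD3.1, minus strand) lay under a broad H3K27me3 interval in both libraries, whose signal was 6.1 in control and 6.0 after butyrate, and no other target was present. PSMB11 had no interval of any target within its window. Its start on chromosome 10 lies only 2753 bp from that of PSMB5, on the opposite strand. PSMB5, the subunit with chymotrypsin-like activity in the standard proteasome, carried H3K4me3 at 130 in control and 114 after butyrate. Of these neighbors, one thus carried active marks and the other did not.

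H3K27ac signals were lower after butyrate at these promoters on the deposited scale. Their average signals shifted about as much as those of all promoters. Their peaks, given further below, were lowered more than the typical promoter. Of the 42 promoters marked by H3K27ac in control, 7 lacked it after butyrate (16.7%, against 30.4% of all promoters with the mark in control). Among the active comparison promoters, which had H3K4me3 and no H3K27me3 in control, this share was 28.0%. At the other 35 proteasome promoters the average signal was lower after butyrate in every case. It was lower at 90.8% of all promoters with the mark in both libraries. The median signal of these 35 was 54.5 in control and 31.8 after butyrate. The log2 ratios of the 35 ran from -1.46 to -0.11 with a median of -0.80 and quartiles of -1.04 and -0.57.

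This was close to the median of all promoters. Relative to it the proteasome genes stood at -0.024, with 19 of 35 on the lower side, and relative to the 10% of promoters with the highest signal the sign turned to 0.074. At least 2-fold lower signals were found at 10 of the 35, where the background was 33.7%, and at least 1.5-fold lower ones at 25, where it was 62.9%. Taken at the peak, the ratio had a median of -1.49, against -1.29 for all promoters and -1.35 for the active comparison promoters. By peak 31 of 35 were at least 2-fold lower, against 64.7% of all and 67.6% of the active comparison promoters. Height and length of the intervals were both smaller at most of these promoters. Whether the shorter length bears on the ratio of the averages was not tested.

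**Figure D1:**
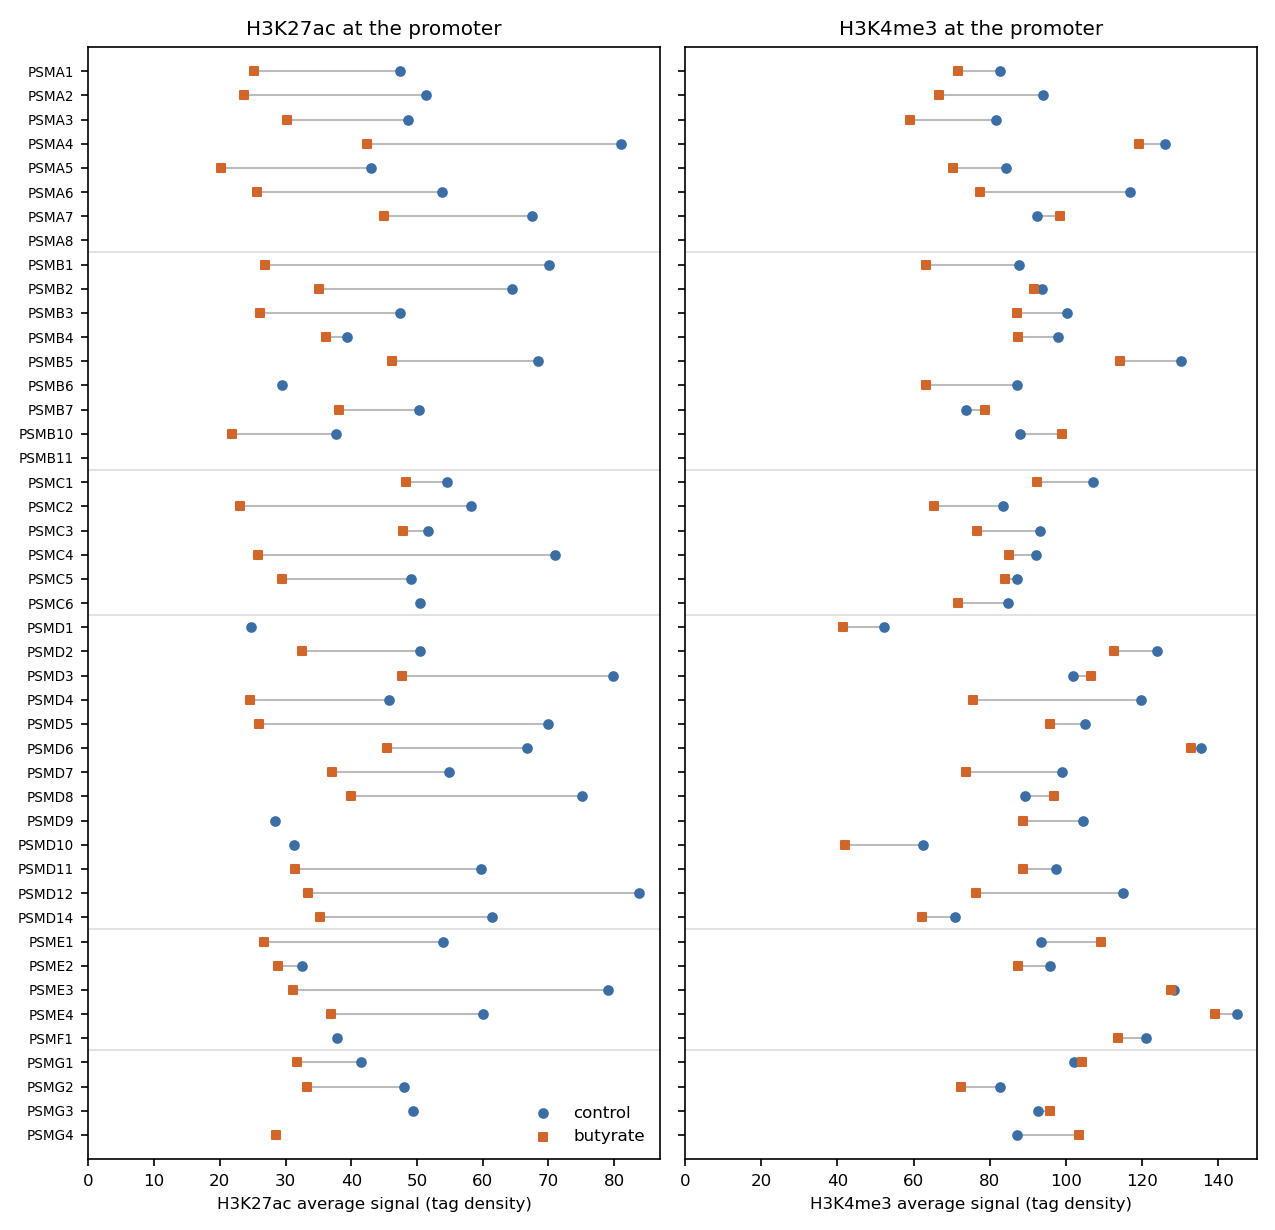
Average signal (tag density, linear axis) of H3K27ac and H3K4me3 at the promoters of the 45 proteasome genes in the control (circles) and the butyrate library (squares), 1 library each, ordered by role from the alpha ring to the assembly chaperones. Butyrate signals of H3K27ac lie left of control at all 35 genes with both (median log2 ratio -0.80, -0.024 relative to the median promoter and 0.074 relative to the top 10%), while H3K4me3 signals lie close together.

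Among the alpha subunits, which form the outer rings of the barrel and its gate, all 7 other than PSMA8 kept H3K27ac, with a median log2 ratio of -0.94. PSMA2 stood at 51.4 in control and 23.7 after butyrate, PSMA5 at 43.0 and 20.1, and PSMA6 at 53.8 and 25.7. These 3 were the alpha subunits at least 2-fold lower. PSMA4 had the highest control signal of the ring (81.0) and kept 42.3. PSMA7 had the mildest ratio, from 67.5 to 45.0 (log2 ratio -0.59). PSMA1 went from 47.4 to 25.3 and PSMA3 from 48.7 to 30.2, so these 7 alpha subunits were lower after butyrate on the deposited scale, while relative to the median promoter PSMA3 and PSMA7 were higher.

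The beta subunits varied more. PSMB1 (chromosome 9, start at 105673470, minus strand), a structural beta subunit, stood at 70.1 in control and 26.8 after butyrate (log2 ratio -1.39). PSMB4 (chromosome 3, start at 19414986, minus strand), also structural, had 39.4 and 36.1 (-0.12). The peak was lower there too. The interval of PSMB4 was 2732 bp long with a peak of 118 in control, and 716 bp long with a peak of 48 after butyrate.

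The 3 constitutive catalytic subunits did not share one pattern. PSMB5 went from 68.5 to 46.1 and PSMB7, the trypsin-like subunit, from 50.3 to 38.2, both above the median promoter in ratio. PSMB6, the caspase-like subunit (chromosome 19, start at 27200805, minus strand), had a low control signal of 29.4 and no H3K27ac interval after butyrate. PSMB10, which replaces PSMB7 in the immunoproteasome of interferon-exposed cells, had 37.7 and 21.9, but its strongest intervals in the 2 libraries were different ones that did not overlap. PSMB2 went from 64.4 to 35.2 and PSMB3 from 47.5 to 26.2, near the median of all promoters.

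The 6 ATPases, which unfold the substrate, held both extremes of H3K27ac. PSMC4 (chromosome 18, start at 49688182, plus strand) stood at 71.0 in control and 25.7 after butyrate, the lowest ratio of all 35 (-1.46). PSMC3 (chromosome 15, start at 78460488, minus strand) had 51.7 and 47.9, the highest ratio (-0.11). Its peak was lower after butyrate (207 in control, 122 after butyrate), and its interval was shorter (3696 bp and 1454 bp). The PSMC3 interval reached only the downstream edge of the window, beginning 1789 bp after the derived start in control, and its H3K4me3 interval began 1815 bp after it.

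PSMC1 went from 54.5 to 48.3 (-0.18), and its peak was not lower after butyrate (101 in control, 110 after butyrate). PSMC2 went from 58.2 to 23.1 and PSMC5 from 49.1 to 29.5. PSMC6 had a signal of 50.4 in control, the highest among the promoters where the mark was in control only. The ATPases thus included nearly unchanged average signals, average signals more than 2-fold lower and an interval no longer called.

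Among the non-ATPase subunits of the regulatory particle, 13 promoters had H3K27ac in control and 10 after butyrate. PSMD5 (chromosome 8, start at 112117754, minus strand), an assembly chaperone of the ATPase ring, had 69.9 in control and 26.0 after butyrate (-1.43). PSMD12, a scaffold subunit of the lid, had the highest control signal of all proteasome genes, 83.8, and 33.4 after butyrate (-1.33). Both were among the 10 promoters at least 2-fold lower.

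The 3 promoters of this group with H3K27ac in control only were PSMD1 at 24.7, PSMD9 at 28.5 and PSMD10 at 31.4. PSMD1 is a large scaffold subunit, and PSMD9 and PSMD10 are, like PSMD5, chaperones of regulatory particle assembly. The ubiquitin receptor PSMD4 went from 45.8 to 24.6, and PSMD14, the enzyme that removes ubiquitin from the substrate, from 61.4 to 35.2. The remaining 6 (PSMD2, PSMD3, PSMD6, PSMD7, PSMD8 and PSMD11) had control signals of 50.5 to 79.9 and log2 ratios of -0.93 to -0.55. No non-ATPase gene had a higher H3K27ac signal after butyrate on the deposited scale, while PSMD2, PSMD3, PSMD6 and PSMD7 were higher relative to the median promoter.

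PSME1 and PSME2 form an activator induced by interferon, PSME3 a nuclear one, and PSME4 an activator that recognises acetylated histones in mouse and yeast. PSME3 (chromosome 19, start at 43500066, plus strand) had 79.1 in control and 31.1 after butyrate (-1.35), PSME1 54.0 and 26.8 (-1.01), and PSME4 60.0 and 36.9. PSME2 had 32.6 and 28.9 (-0.17), but the stronger interval in the butyrate library had its summit 1073 bp upstream, toward the start of RNF31, and the interval downstream of the PSME2 start had a signal of 18.0. PSMF1, a proteasome regulator first described as an inhibitor, had 37.8 in control and no interval after butyrate.

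Of the assembly chaperones of the core particle, PSMG1 went from 41.5 to 31.8 and PSMG2 from 48.0 to 33.2. PSMG3 had 49.5 in control and no interval after butyrate. PSMG4 was the single gene with H3K27ac after butyrate only, at 28.6, where 3.64% of all promoters without the mark in control gained it. That interval had its summit 2050 bp downstream of the start and a weaker one began 1194 bp downstream, so with a window of 1 kb no proteasome promoter gained H3K27ac.

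The promoters where H3K27ac was in control only had been the weaker ones. Their control signals were 24.7 to 50.4 with a median of 31.4, against 32.6 to 83.8 with a median of 54.5 at the 35 with both. Their peaks had a median of 56 against 141. The ranges overlapped, since PSMC6 and PSMG3 lay well inside the range of the others. An interval not called is not a signal of 0, and the lowest average signal of any H3K27ac interval after butyrate was 14.0.

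The position of H3K27ac relative to the gene start also differed. An interval covered the start itself at 39 of the 42 promoters with the mark in control, against 70.6% of all promoters with the mark, and at 14 of 36 after butyrate, against 35%. The strongest interval reached a median of 278.5 bp upstream of the start in control, and after butyrate it began a median of 39.5 bp downstream of it. The summits lay a median of 179 bp and 255 bp downstream. The median length of the interval at the 35 promoters with both was 1682 bp in control and 703 bp after butyrate.

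At PSMC4 the interval ran from 251 bp upstream to 1431 bp downstream in control, and after butyrate from 75 bp to 707 bp downstream. At PSMB1 it ran from 469 bp upstream to 810 bp downstream, and then from 64 bp to 569 bp downstream. In both genes the upstream side of the promoter had no H3K27ac interval after butyrate. Of the 35 promoters, 32 had a shorter interval, where the background was 89.2%, and at 24 it was at most 0.5 times as long, where it was 58.1%. The exceptions were PSMC1, PSME1 and PSME2.

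**Figure D2:**
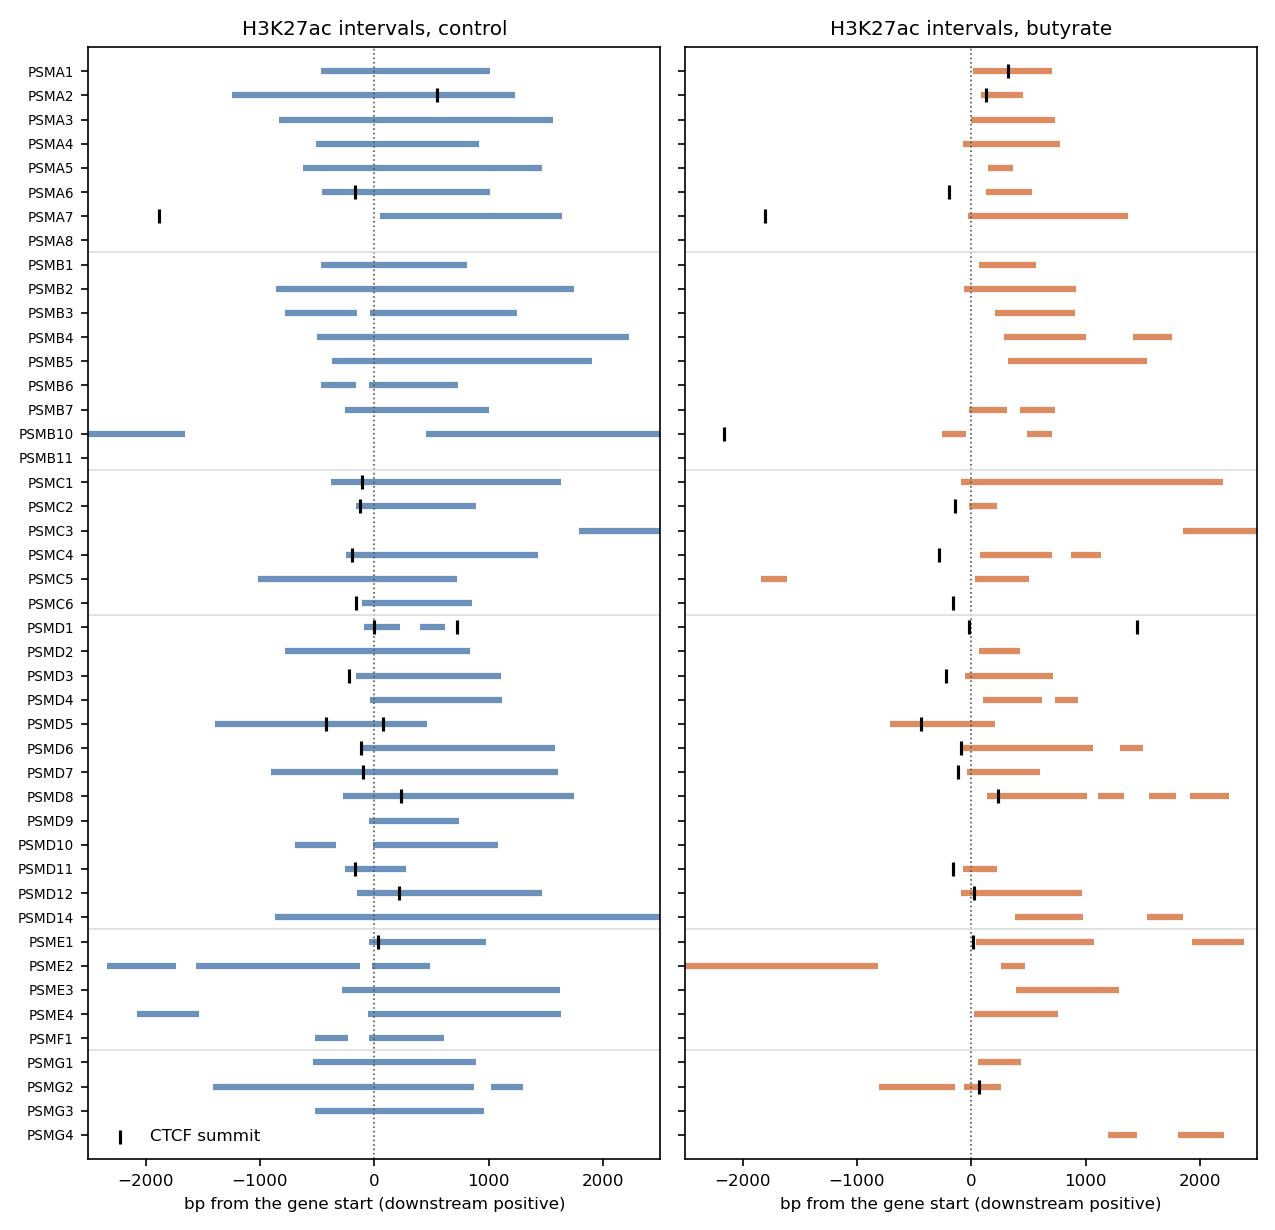
H3K27ac intervals (bars) and CTCF summits (vertical ticks) at the 45 promoters in the control (left) and butyrate (right) library, drawn to scale as distance in bp from the gene start (dotted line), downstream to the right, and clipped at the panel edges. Intervals covered the start at 39 of 42 marked promoters in control and at 14 of 36 after butyrate.

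H3K4me3 signals of the libraries lay close together, with a lean to the lower side after butyrate. The median signal over the 43 promoters was 93.8 in control and 87.4 after butyrate. The signal was lower at 34 of 43 promoters (79.1%), where the background was 51.7%, and 61.2% among the 10123 promoters that had H3K4me3 in both libraries and no H3K27me3 in control. The median log2 ratio was -0.17, with quartiles of -0.31 and -0.031. The median over all promoters was -0.012 and that over the active comparison promoters -0.075. Centred on the median of all promoters, 33 of 43 were lower, and scaled on the top 10%, 34.

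By peak signal the lean was smaller, with 29 of 43 lower, where the background was 45.7%, and a median log2 ratio of -0.064. Among the active comparison promoters 54.0% were lower by peak signal, with a median log2 ratio of -0.024. No proteasome promoter was 2-fold lower or higher, where the backgrounds were 0.0963% and 3.94%. At a threshold of 1.5-fold, 3 genes were lower, where the background was 1.76%. The median breadth was similar (2405 bp and 2357 bp), and none of the 43 intervals was at most 0.5 times as long after butyrate (background 2.74%). The strongest interval was shorter after butyrate at 27 of 43 promoters (62.8%), against 49.0% of all and 56.6% of the active comparison promoters. Fewer bases of the window were covered at 31 of 43 (72.1%), against 49.9% of all and 57.9% of the active comparison promoters. In each library 40 of 43 promoters had the start covered, against 80.9% and 79.4% of all promoters with the mark. Among the active comparison promoters with the mark these shares were 86.4% and 85.9%. The genes with H3K4me3 beside the derived start were PSMA7, PSMB10 and PSMC3.

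The 3 lowest H3K4me3 ratios were those of PSMD4, PSMA6 and PSMD12. PSMD4 (chromosome 3, start at 19607566, minus strand) stood at 119.9 in control and 75.5 after butyrate (log2 ratio -0.67). PSMA6 had 116.9 and 77.6, and PSMD12 115.2 and 76.5 (both -0.59). All 3 started above the median of the proteasome genes and ended below it. Each of these 3 strongest intervals was also longer after butyrate (2153 bp against 1590 bp at PSMD4), where it reached into the place of a separate weaker control interval. All H3K4me3 intervals together covered 2328 bp of the window in control and 2153 bp after butyrate at PSMD4. They covered 2948 bp and 2777 bp at PSMA6, and 2444 bp and 2532 bp at PSMD12. The peak values were 193 and 156 at PSMD4, 272 and 227 at PSMA6, and 288 and 268 at PSMD12.

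The 3 highest were PSMG4, with 87.2 in control and 103.6 after butyrate (0.25), PSME1, with 93.4 and 109.3 (0.23), and PSMB10, with 88.1 and 99.1 (0.17). PSME1 and PSMB10 belong to the interferon-inducible proteasome, but PSME2, the partner of PSME1, was lower, with 95.8 and 87.5 (-0.13). The peaks of these genes differed less, with 209 and 227 at PSMG4, 254 and 245 at PSME1, and 226 in both libraries at PSMB10.

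By role, all 6 ATPase promoters had a lower H3K4me3 signal (median log2 ratio -0.23), as did 6 of 7 alpha subunits (-0.26), 6 of 8 beta subunits (-0.18) and 11 of 13 non-ATPase subunits (-0.19). The activators and the inhibitor had a median of -0.060, with 4 of 5 lower. The assembly chaperones had a median of 0.037, with 1 of 4 lower. The 2 weakest H3K4me3 promoters were the same in both libraries: PSMD1, with 52.3 and 41.5, and PSMD10 on the X chromosome, with 62.5 and 41.9. Both also belonged to the genes with H3K27ac in control only.

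The ratios of the 2 marks were only loosely related across genes (Pearson's r 0.22, Spearman's rho 0.17, n = 35 genes that share the same 4 libraries), much as across all promoters (r 0.20, n = 7495). PSMD12 was low in both marks. PSMC4, with the lowest H3K27ac ratio, had an H3K4me3 ratio of -0.12, and PSME3 kept its H3K4me3 signal (129 in control, 128 after butyrate) where H3K27ac was more than 2-fold lower.

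**Figure D3:**
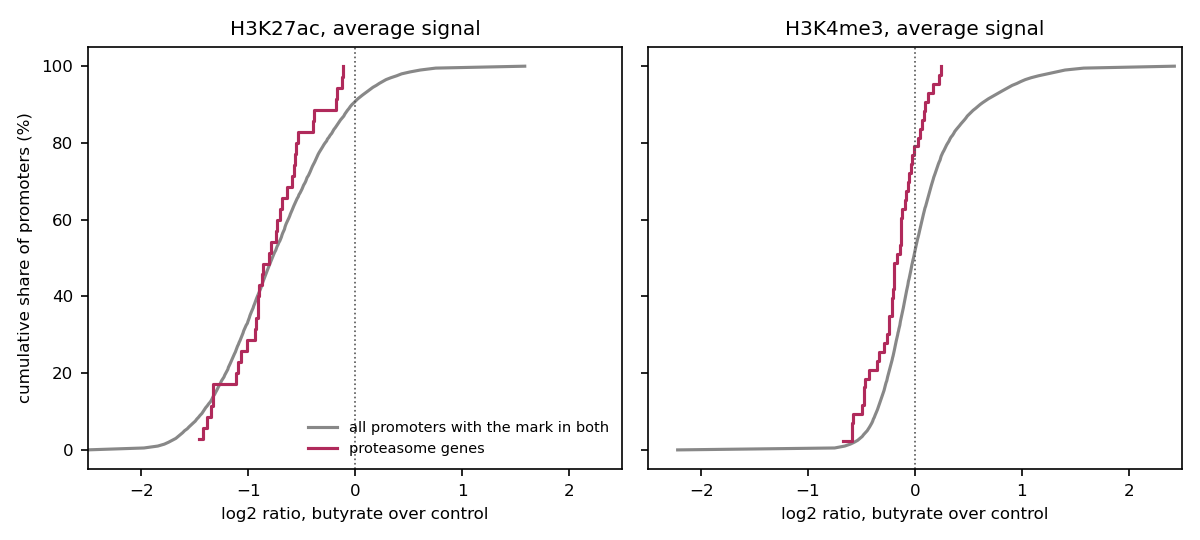
Cumulative share of promoters (vertical axis, percent) by log2 ratio of average signal, butyrate over control (horizontal axis), for proteasome genes (steps) and all promoters with the mark in both libraries (smooth line). For H3K27ac the medians are -0.80 and -0.78, a difference of -0.024 that turns to 0.074 when libraries are scaled on the top 10%, and for H3K4me3 they are -0.17 and -0.012.

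H3K4me1 was found beside these promoters rather than on them. It was present at 19 promoters in control and at 5 after butyrate (42.2% and 11.1%), where 30.8% and 18.2% of all promoters and 42.6% and 14.5% of the active comparison promoters carried it. Of the 19, 14 had it in control only (73.7%, where the background was 55.8% and the active comparison promoters stood at 68.2%). The summits in control lay a median of 1018 bp downstream of the start, against 621 bp over all promoters with the mark, and 5 of 19 were upstream, against 35.7%. The start itself was covered at 1 of the 19, PSMB10. This compares with 15.7% of all promoters with the mark and 9.49% of the active comparison promoters with it.

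The 5 genes with H3K4me1 in both libraries were PSMA7, with 39.1 in control and 51.9 after butyrate, PSMB10, with 90.7 and 52.2, PSME1, with 41.2 and 31.7, PSMG3, with 45.4 and 39.2, and PSMG4, with 43.0 and 35.7. PSMA7 was the single one with a higher signal. At PSMG4 the strongest intervals of the libraries did not overlap. All 3 ATPase genes and all 5 non-ATPase genes with H3K4me1 in control lacked it after butyrate.

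H3K27me3 was rare. It reached 7 promoters in control and 3 after butyrate, where 33% and 29.3% of all promoters carried it, and 4 of the 7 had it in control only, where the background was 20.6%. The strongest was PSMA7 (chromosome 13, start at 55501342, plus strand), with 53.8 in control and 21.8 after butyrate. That interval lay mostly upstream, from 2142 bp before to 257 bp after the start in control, and ended 143 bp before it after butyrate. PSMA7 also had its CTCF summit and its strongest H3K4me1 interval on this upstream side in both libraries. The strongest H3K4me3 interval lay downstream of the start in both libraries, and after butyrate 3 weaker ones lay upstream, with signals of 36.3 to 53.5.

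Elsewhere the H3K27me3 signal was lower. PSMB3 had 17.6 and PSMD1 16.6 in control only, and PSMB7 had 7.7 and PSMD6 7.8 in control only. PSMD12 had 8.8 in control and 6.7 after butyrate, and PSMA8 is given above. At these 5 genes other than PSMA8, broad intervals of up to 32199 bp came from upstream and ended between 1702 bp and 286 bp before the start in control.

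CTCF was found at 16 promoters in control and at 18 after butyrate, where 24.6% and 26.8% of all promoters carried it and 38.7% of the active comparison promoters in control. The signals changed little, with a median log2 ratio of -0.034 over the 15 genes with CTCF in both, and no gene reached 2-fold (backgrounds 0.214% lower and 0.681% higher). Most CTCF intervals sat on the gene starts. In control 12 of the 16 covered the start, where the background was 31.2%, and 13 of 18 after butyrate, where it was 35.1%. Among the active comparison promoters with CTCF these shares were 35.4% and 39.4%. Summits at the proteasome promoters lay a median of 123 bp upstream in control and 130.5 bp upstream after butyrate.

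Roles differed in how often CTCF was present. Of the 13 non-ATPase promoters 8 had CTCF in control, and of the 6 ATPase promoters 4, while none of the 9 beta subunit promoters did. The highest CTCF signals were those of PSMD1 (85.1 in control, 77.2 after butyrate), PSMD3 (85.0 and 70.1), PSMC6 (83.4 and 98.6), PSMD6 (66.5 and 89.1), PSMC2 (64.2 and 62.7) and PSMD11 (64.0 and 52.6). Each of these had its summit between 217 bp upstream of the start and 1 bp downstream of it in control.

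Intermediate CTCF signals were those of PSMC4 (42.2 in control, 47.6 after butyrate), PSMA6 (40.3 and 40.5), PSMD5 (36.1 and 31.7), PSME1 (35.2 and 35.4), PSMA7 (31.9 and 30.7) and PSMD8 (30.9 and 26.2). The weakest with CTCF in both were PSMA2 (25.7 and 19.8), PSMD12 (24.6 and 26.5) and PSMD7 (23.3 and 27.5), and at PSMA2 and PSMD12 the intervals of the libraries did not overlap. PSMC1 had CTCF in control only (27.6), and PSMA1 (26.5), PSMG2 (24.6) and PSMB10 (39.7) after butyrate only. The changes of presence thus concerned low signals, apart from PSMB10, whose summit lay 2162 bp upstream.

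Of the genes with H3K27ac in control, 2 of the 19 with CTCF in either library had it in control only, and 5 of the 23 without CTCF. The 2 with CTCF were PSMD1 and PSMC6, whose CTCF signal at the start was high in both libraries. Among genes with H3K27ac in both, the median log2 ratio of H3K27ac was -0.91 for the 17 with CTCF in either library and -0.72 for the 18 without it, and the ranges overlapped (-1.46 to -0.18 and -1.39 to -0.11).

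Several members shared their promoter with another gene. A start on the opposite strand lay within 1 kb at 7 of the 45 (15.6%), where the background was 16.2%. These were PSMA2 with MRPL32, a mitochondrial ribosomal protein gene, 210 bp upstream, PSMC5 with FTSJ3 at 377 bp, PSMG2 with CEP76 at 309 bp, PSME2 with RNF31 at 766 bp, PSMA3 with LOC104973190 at 147 bp, PSMD5 with LOC616903 at 123 bp and PSMD7 with LOC101902657 at 101 bp. Their intervals cannot be assigned to one gene of the pair. All 7 kept H3K27ac, and in control it covered a median of 2395 bp of their windows, against 1475 bp at the other genes.

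Inside the genes, more than 2 kb from the start, H3K27ac went the other way in number. In control 12 intervals lay in 7 of the 45 gene bodies, and after butyrate 64 intervals lay in 22. The shares of all genes with such an interval were 21.1% and 24.8%, and over all genes the intervals rose in number from 16784 to 31612. Of the proteasome genes, 16 had body intervals after butyrate only and 1, PSMB5, in control only. Genes with body intervals in only 1 library were not counted over all genes, so no background stands beside these counts. Nor were body intervals counted among the active comparison promoters.

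PSMB7 held the most, with 1 interval in control and 20 after butyrate, spread from 9842 bp to 56258 bp downstream of its start with average signals of 14.4 to 42.4. Without PSMB7 the counts were 11 and 44. PSMD4 followed with 0 and 6, then PSMA7 and PSMD3 with 0 and 4 each and PSMD11 with 1 and 4. PSMD5 went from 3 to 2, and PSMD1 and PSMD6 from 2 to 1. No body interval of H3K27me3 was called in either library, where 12.7% of all genes had one in control and 13.8% after butyrate. Body intervals of H3K4me3 lay in 7 proteasome genes in control and 6 after butyrate (all genes 16.4% and 20.1%), those of H3K4me1 in 11 and 5 (27.4% and 24.9%), and those of CTCF in 6 and 6 (27.8% and 29.6%).

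**Figure D4:**
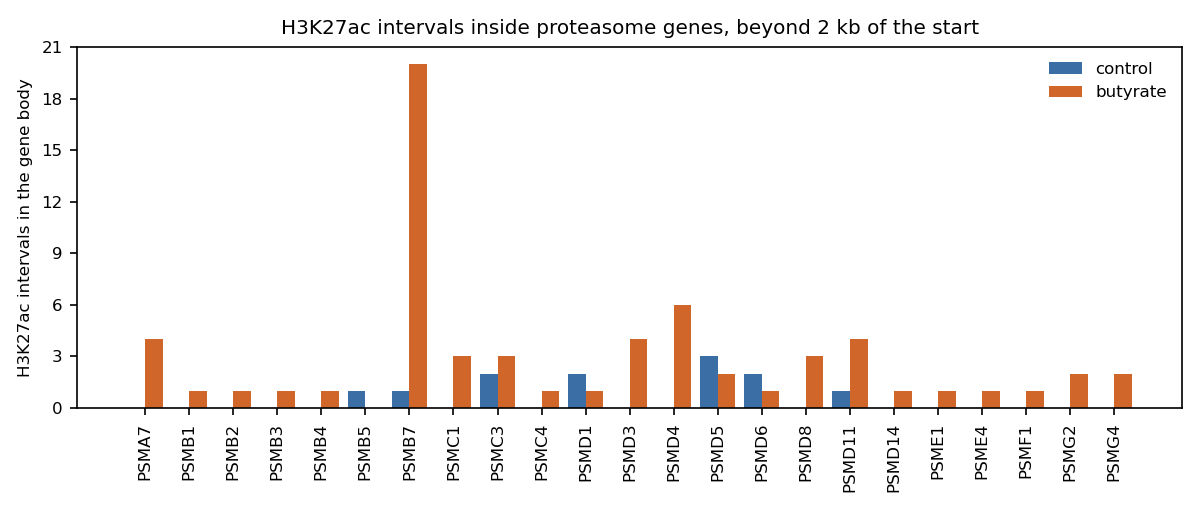
Number of H3K27ac intervals inside the 23 proteasome genes that had at least 1 in their body, more than 2 kb from the gene start, in the control and the butyrate library. The total was 12 in control and 64 after butyrate, of which PSMB7 held 1 and 20.

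PSMD13, a lid subunit, was listed from 2 starts on chromosome 11. At 107117098 on the plus strand, H3K27ac stood at 59.2 in control and 22.7 after butyrate (log2 ratio -1.38) and H3K4me3 at 114 and 91.1 (-0.33), within the ranges of the other members. At 107251342 on the minus strand no target had an interval within 2 kb, although 13 of its 20 listings pointed there. No value of PSMD13 enters the counts above.

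Other genes of the pathway were read at the same window. Of 35 ubiquitin, proteasome partner, shuttle, regulator and immunoproteasome genes, 33 had a start. H3K27ac was present at 32 in control and at 30 after butyrate, where the backgrounds were 47.3% and 34.9%. The median log2 ratio was -0.91, against -0.78 over all promoters. At least 2-fold lower signals were found at 13 of 30, where the background was 33.7%. PSMB9 and TAP1 share a promoter and its intervals, so the same value is counted for each of them. UBB, which encodes ubiquitin repeats, stood at 97.8 for H3K27ac in control and 23.3 after butyrate (-2.07). POMP, a chaperone of core particle assembly, had 72.3 and 28.5. VCP, the segregase that passes substrates to the proteasome, had 111 and 95.9.

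H3K4me3 was lower at 17 of these 33 promoters, where the background was 51.7%, and at least 2-fold higher at 1, where it was 3.94%. Among the 7 regulators, 1 was lower, and MAFF, a small partner of the transcription factors encoded by NFE2L1 and NFE2L2, was the single gene at least 2-fold higher (87.6 in control, 188 after butyrate). NFE2L1, the activator of proteasome genes in human and mouse cells, had H3K4me3 at 74.2 and 81.8 and H3K27ac at 50.2 and 33.9.

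The immunoproteasome subunits that the symbol rule left out were higher in average H3K4me3 signal after butyrate, unlike most constitutive subunits. PSMB8 had 101 in control and 136 after butyrate, and PSMB9, which shares its promoter with TAP1, had 94.4 and 129. Their H3K27ac signals were lower, at 47.1 and 22.1 for PSMB8 and 44.3 and 20.2 for PSMB9. Among the inducible members described above, PSMB10 and PSME1 were likewise higher in average H3K4me3 signal and PSME2 was lower. By peak signal PSME1 was lower (254 in control, 245 after butyrate) and PSMB10 stood at 226 in both libraries. The H3K4me3 intervals of PSMB10 did not cover its start in either library. No test of a difference was possible.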

How the data were processed

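ChIP-seq was analysed from 10 libraries of REPC (5 targets, control and butyrate), 1 per target and condition, and 1 input sample had no intervals of its own here. Per the labels, the authors trimmed reads with Trim Galore 0.4.1, aligned them with BWA and called peaks with MACS2 on UMD3.1. The deposited table gives 371758 intervals with a signal (tag density, peak at the summit and average over bins of about 32 bp). H3K27me3 intervals start on a grid of 200 bp, whose tool is not given in the sources used here. Nor do they give the scaling between libraries or whether coordinates begin at 0 or 1. The table holds no read totals, so no precision from depth is given.

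Gene starts were derived from summit and annotated distance (at least 2 listings, 90% agreement). A promoter took the strongest interval by average signal. Log2 ratios used no pseudocount and only promoters with intervals in both libraries, since an uncalled promoter has no signal value. A fold of 2 counted as higher or lower. The background is the same count over all promoters. The active comparison promoters had H3K4me3 and no H3K27me3 in control. The named genes were the 3 highest and lowest ratios of H3K27ac and H3K4me3, genes with H3K27ac in 1 library, every gene with H3K27me3 or CTCF, those without H3K4me3, those with a neighboring start and those with several starts. Any other gene in the text was picked with its values in view. The members and all lists were chosen with earlier results of these data known. PSMC3IP, whose symbol goes on beyond the rule and which is no proteasome subunit, was left out. All 46 symbols were found in the RefSeq gene table of ARS-UCD2.0, used for names only. Promoter sequences were not used here, so the planned motif search was not run. Alternatives were windows of 1 kb and 5 kb, stricter intervals, an overlap of 50%, equal numbers of intervals, peak signal, a pseudocount of 1, 2 scalings, omission of low signals and folds of 1.5 and 3. Intervals covering the start and a length-weighted mean were added after seeing the data. The code was tested on simulated intervals. Python 3.11.15, numpy 2.4.6 and pandas 2.3.3 were used.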

Additional observations from a re-analysis of the deposited data

How the results depend on the processing

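With 1 library per target and condition, no replicate could be left out, and no p-value stands behind any count. No paired analysis was possible because each group has 1 sample per target. Of 290 values of 35 summaries under alternatives, 251 stayed within the margins set, 37 moved and 2 reversed. Of the ratios of single genes under alternatives, 932 kept their side of the 2-fold threshold, 23 fell short of it and 24 passed it, and no called ratio changed sign.

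The median log2 ratio of H3K27ac was -1.49 by peak signal, -0.024 centred on the median promoter and, reversed, 0.074 scaled on the top 10% of promoters. The 10 promoters 2-fold lower in H3K27ac became 31 by peak signal, 25 at 1.5-fold, and 0 at 3-fold, centred or scaled on the top 10%. At 1.5-fold, 3 promoters were lower in H3K4me3 and 1 in H3K4me1. H3K27me3, with 3 genes, had a median of 0.60, reversed, on the top 10% scaling, and 0 genes 2-fold lower at 3-fold, centred or scaled. Without low signals its value of -1.30 was that of PSMA7 alone.

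Counting only intervals that cover the start gave H3K27ac at 14 promoters after butyrate with 26 in control only, H3K4me1 at 1 in control, 0 after butyrate and 1 in control only, H3K27me3 at 2 in control, 1 after butyrate and 1 in control only, and CTCF at 2 in control only. With 1 kb, H3K27ac was after butyrate only at 0 promoters, H3K4me1 at 10 in control, 2 after butyrate and 8 in control only, and H3K27me3 at 4 in control and 2 in control only. With 5 kb, H3K4me1 was at 9 after butyrate, H3K27me3 at 13 in control and 9 after butyrate, and CTCF in control only at 0. With a 50% overlap, H3K4me3 was in control only at 1, and H3K27me3 at 2 in control and 0 in control only. CTCF in control only was 2 under stricter intervals and 2 under equal numbers. The cause of these shifts was not tested beyond the fewer or more intervals that each setting admits.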
